A study of Mus musculus with 12 samples.

Results

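MiR-26a and miR-26b are the 2 miRNA names of the miR-26 family among 1087 names in the mouse annotation (GENCODE release M21, genome build GRCm38), of which 705 had at least 1 matching tag. They were chosen by name, and a tag (a distinct insert sequence with its number of reads) was counted for them when its whole length matched 1 of their 3 hairpins exactly. The tags come from small RNA of the hippocampus of individual C57BL/6NCrl mice, sequenced as 12 libraries. The groups were untreated mice (NT, given as 0 hr) and mice taken 0.5 h, 1 h, 3 h, 6 h or 24 h after electroconvulsive shock (ECS), a current across the brain that causes a seizure and depolarizes neurons in synchrony. Each group had 2 libraries, and the 6 libraries numbered 1 form the first time course and the 6 numbered 2 form the second. The labels name no genetic change in these mice. The whole hippocampus was used, so that fewer cells of a type and less RNA per cell cannot be told apart.

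MiRNAs are cut from hairpin precursors by Drosha and Dicer. One strand of the resulting duplex, the 5′ or the 3′ arm, is then retained by an Argonaute protein and guides it to mRNAs that pair with the seed near its 5′ end. MiR-26 is a widely expressed vertebrate family whose hairpins lie in introns of the genes of the small C-terminal domain phosphatases (Ctdsp1, Ctdsp2 and Ctdspl), which remove phosphate from the tail of RNA polymerase II and, in neural precursors, help to keep neuronal genes off. A well-studied target of miR-26 is Ezh2, the methyltransferase of Polycomb complexes.

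The mature 5′ arms are shown because every result below depends on how they differ. They are given from RefSeq (GRCm38.p6), 5′ to 3′, with the seed (bases 2 to 8) in capitals.
miR-26a-5p: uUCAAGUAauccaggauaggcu
miR-26b-5p: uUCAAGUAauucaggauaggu
The seeds were identical. Of the 1679 mature miRNA names of RefSeq, only these 2 held that seed, and among the arms with reads only the 2 members had it in their most abundant tag. Counted from 1 at the 5′ end, the arms differed by C11U and C21U (miR-26a base first), and RefSeq gives 22 nt for miR-26a and 21 nt for miR-26b. A tag of 18 nt already contains position 11, so the shortest tags counted still told the members apart.

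The 3 hairpins follow, with the mature 5′ arm in capitals, because the 5′ arm of miR-26a does not tell its 2 loci apart while the 3′ arm does.
Mir26a-1: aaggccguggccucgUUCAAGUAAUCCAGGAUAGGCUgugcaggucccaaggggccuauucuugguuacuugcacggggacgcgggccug
Mir26a-2: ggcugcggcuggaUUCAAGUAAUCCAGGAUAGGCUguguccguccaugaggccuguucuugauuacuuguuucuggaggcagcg
Mir26b: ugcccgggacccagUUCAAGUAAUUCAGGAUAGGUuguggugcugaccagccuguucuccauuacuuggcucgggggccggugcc
Mir26a-1 lies at chr9:119031796-119031885 (GRCm38, plus strand) in intron 5 of an 8-exon transcript of Ctdspl. Mir26a-2 lies at chr10:126995530-126995613 (plus strand) in intron 5 of an 8-exon transcript of Ctdsp2. Mir26b lies at chr1:74394310-74394394 (plus strand) in intron 4 of a 7-exon transcript of Ctdsp1, 234 bases after the start of that intron. All 3 hairpins are on the same strand as their host genes.

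Accepted reads ranged from 1897490 to 7657222 per library, and reads that matched any annotated miRNA hairpin exactly ranged from 439336 to 4282006. The libraries of the first time course held more short tags. For all miRNAs other than miR-26, tags of 18 or 19 nt made up 51.3% of the miRNA counts in NT-1, 13.5%, 13.8% and 16.9% in the libraries at 1, 3 and 6 h, and 7.11% and 4.54% at 0.5 and 24 h. In the second time course these shares lay between 0.909% and 3.81%. The 5 neuronal marker miRNAs, such as miR-124, were present in every library and summed to between 5.94% and 31.1% of the miRNA counts.

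Both members came almost wholly from the 5′ arm. Over the 12 libraries, the 5′ arm of miR-26a had 143327 exactly matching reads and that of miR-26b had 36720. The 3′ arm of miR-26a had 13 reads, of which 4 were in NT-2 and 3 each in the libraries at 1, 3 and 24 h of the second time course. The 3′ arm of miR-26b had 1 read, in NT-2. No 3′ read was found in the first time course, whose totals of 1362 to 6875 reads of the miR-26a 5′ arm were also lower. Of the 5′ reads of miR-26a, 143320 matched Mir26a-1 and Mir26a-2 alike and 7 matched 1 of them alone. Among the 13 reads of the 3′ arm, 11 came from Mir26a-2 in the intron of Ctdsp2 and 2 from Mir26a-1 in the intron of Ctdspl, too few to give the share of each locus.

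The 5′ end was nearly fixed. Of the 5′ arm reads, 99.5% of those of miR-26a and 99.6% of those of miR-26b began at the mature start. Per library this share was never under 98.6%. The most frequent other start was 1 base downstream for miR-26a, with 356 reads, and 3 bases downstream for miR-26b, with 115 reads. Reads with a shifted start have another seed, and they made up at most 1.40% of either member in any library.

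MiR-26a had more reads than miR-26b in every library. The study cites work in which library protocols changed the measured amounts of miRNAs. The part of such bias in the difference between the members was not tested. In the first time course, in the order untreated, 0.5 h, 1 h, 3 h, 6 h, 24 h that is kept below, the 5′ arm of miR-26a took 0.435% (Wilson 95% interval 0.423% to 0.448%), 0.359%, 0.425%, 0.164%, 0.31% and 0.31% of the miRNA counts. In the second time course it took 0.560%, 0.680%, 0.339%, 0.302%, 1.06% and 0.6252%. The 2 time courses overlapped in this share, and the library at 6 h of the second was the highest of the 12. Its mean over the libraries was 0.464% ± 0.238 (SD, n = 12), which ranked miR-26a 34th among all arms.

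MiR-26b took 0.0433% (Wilson 95% interval 0.0395% to 0.0474%), 0.0789%, 0.0408%, 0.0172%, 0.0298% and 0.0675% of the miRNA counts from untreated to 24 h of the first time course. In the second it took 0.145%, 0.197%, 0.0838%, 0.0590%, 0.513% and 0.147%. The second time course was higher at each time point, and the library at 6 h stood far above the other 11. The mean was 0.118% ± 0.135 (SD, n = 12), an SD larger than the mean. The intervals cover counting error only, since PCR copies were not marked with molecular identifiers.

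**Figure D1:**
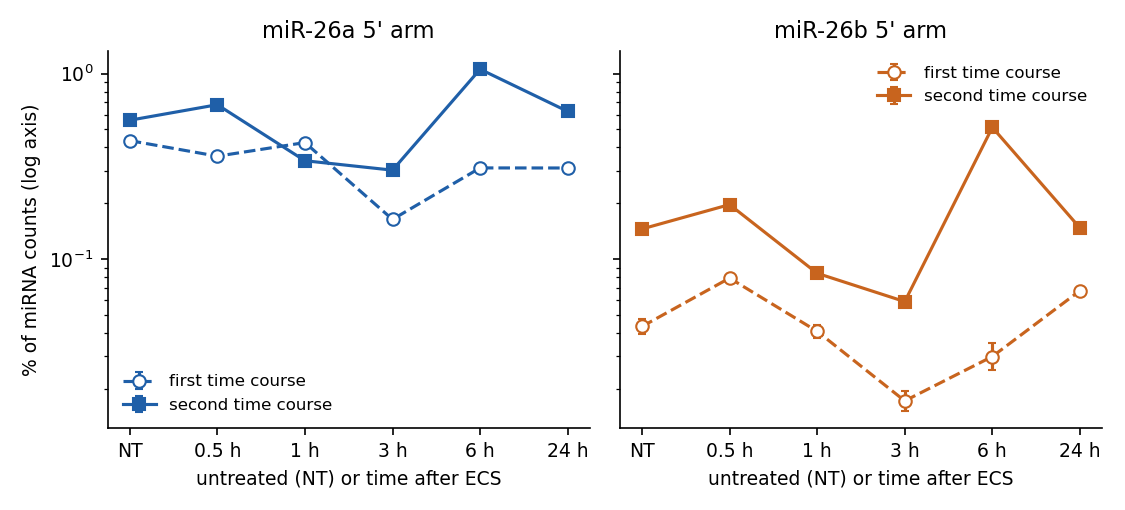
Share of the exactly matching miRNA counts (percent, log axis) taken by the 5′ arms of miR-26a (left) and miR-26b (right) in each library, by group (NT, or hours after ECS); open circles are the first and filled squares the second time course, error bars are Wilson 95% intervals, and lines only join the libraries of 1 time course. The 3 h library is the lowest of its time course in all 4 series, and the 6 h library of the second time course is the highest of the 12 for both members.

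Within a library, the excess of miR-26a reads over miR-26b reads was larger than the spread between libraries. The log2 ratio of miR-26a to miR-26b averaged 2.41 and was above 0 in 12 of 12 libraries (exact permutation test of all sign flips, two-sided, p = 0.000488, which is the lowest that 12 libraries can give, and 0.00342 after Benjamini-Hochberg adjustment over the 14 library-level tests made here). Counted as miR-26b reads per 100 miR-26a reads, the ratio in the first time course was 9.94 in the untreated library and then 22.01, 9.60, 10.50, 9.62 and 21.8 from 0.5 h to 24 h. In the second it was 25.9 and then 28.9, 24.7, 19.6, 48.6 and 23.5. The first time course thus held 4 libraries between 9.60 and 10.50 and a pair at 21.8 and 22.01, and the second held 5 libraries between 19.6 and 28.9 and 1 well above them.

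The ratio was higher in the second time course at 6 of 6 time points, by 1.08 on the log2 scale (two-sided exact permutation test that swaps the pair of libraries at each time point in all 64 ways, p = 0.031, the smallest p possible, adjusted p = 0.0438). Values by tag length are given side by side, and the difference between the length classes was not tested. Among tags of 21 nt or more, the miR-26b count per 100 miR-26a counts was 28.1 ± 9.49 in the first time course and 31.2 ± 12.3 in the second (SD, n = 6 each), a log2 difference of 0.127 (exact permutation test, two-sided, p = 0.625), to which the untreated pair (47.2 against 27.8) and the 6 h pair (22.2 against 55.7) went opposite ways. Among tags of 18 to 20 nt, a class added after seeing the data, it was 9.17 ± 2.79 (SD, n = 6) and 18.5 ± 6.50 (SD, n = 6), a log2 difference of 1.00 (exact permutation test, two-sided, p = 0.031). With only the 0.5 and 24 h pairs, in which the first time course had mostly tags of 21 nt or more, the log2 difference over all tags was 0.252. Tags of 18 to 20 nt were still 2001 of 6292 miR-26a reads at 0.5 h and 2024 of 6875 at 24 h of the first time course. In the second they were 4174 of 26479 and 4750 of 25687. These pairs were also chosen after seeing the data, and their smallest possible p of 0.5 allows no call.

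**Figure D2:**
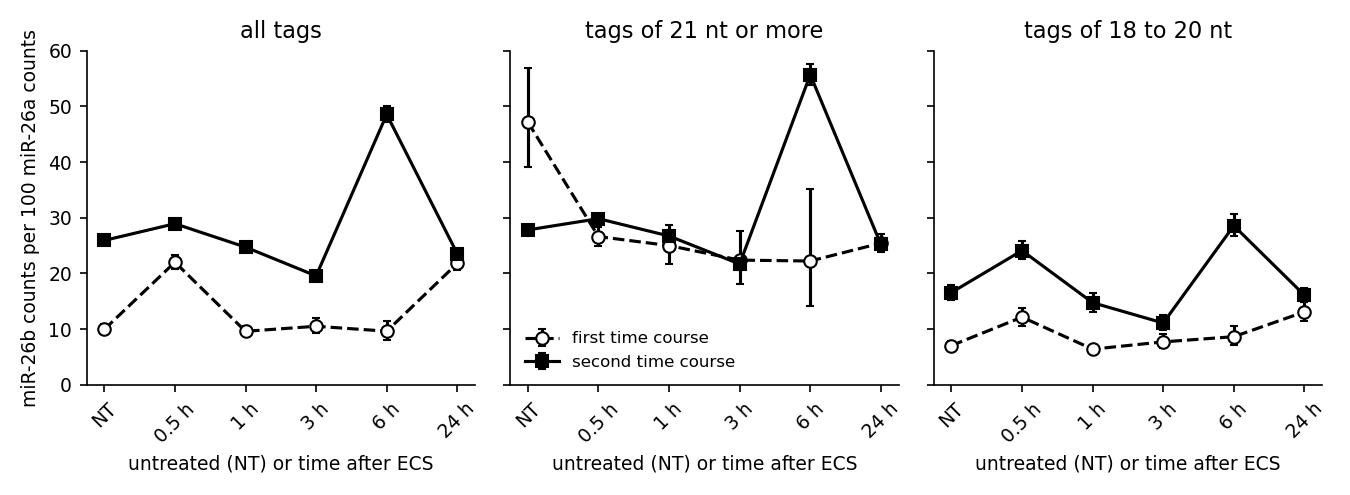
MiR-26b counts per 100 miR-26a counts in each library (linear axis from 0) for all tags, tags of 21 nt or more and tags of 18 to 20 nt; open circles are the first and filled squares the second time course, and bars are 95% intervals from the Wilson interval of the miR-26b share. Among the longer tags the courses lie close together except at NT, where the first stands at 47.2, and at 6 h, where the second stands at 55.7.

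Tag length differed widely between libraries. The 3 most abundant tags of each 5′ arm, all of which start at the mature start, show where the 3′ end lies. Capitals mark the bases at which the members differ, with T for U as in the deposited reads.
miR-26a, 22 nt: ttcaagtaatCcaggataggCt
miR-26a, 20 nt: ttcaagtaatCcaggatagg
miR-26a, 21 nt: ttcaagtaatCcaggataggC
miR-26b, 22 nt: ttcaagtaatTcaggataggTt
miR-26b, 20 nt: ttcaagtaatTcaggatagg
miR-26b, 21 nt: ttcaagtaatTcaggataggT
The 22-nt tag held 63.96% of the 5′ reads of miR-26a (91674 reads) and 73.5% of those of miR-26b (26983 reads). For miR-26b this tag is 1 base longer than the RefSeq sequence, and the RefSeq length of 21 nt held 11.5% (4233 reads).

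In the first time course, the 22-nt tags made up 6.31% of miR-26a in the untreated library and then, by rising time after ECS, 55.5%, 6.59%, 8.43%, 0.881% and 57.5%. In the second, they made up between 63.7% (6 h) and 78.7% (0.5 h). The 4 libraries without a majority of full-length tags did not lose the same bases. In NT-1, 74.5% of the miR-26a reads ended at 19 nt and 12.2% at 20 nt, while at 1, 3 and 6 h tags of 20 nt held 63.7%, 61.2% and 70.1%.

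MiR-26b had few full-length tags in the same 4 libraries, with higher shares than miR-26a in each. In the first time course 22-nt tags made up 29.0% of its reads in the untreated library and then 56.2%, 23.96%, 23.6%, 3.05% and 56.8%. In the second they made up between 72.3% (6 h) and 81.2% (1 h). Its exactly matching tags were longer on average than those of miR-26a in 12 of 12 libraries, by a mean of 0.225 nt (exact permutation test of sign flips, two-sided, p = 0.000488, adjusted p = 0.00342). The gap was 0.647 nt in NT-1, where miR-26a averaged 19.27 nt and miR-26b 19.92 nt, and 0.0413 nt in the library at 0.5 h of the second time course. Counted by the first 18 nt, the mean gap was 0.192 nt (exact permutation test of sign flips, two-sided, p = 0.0151, adjusted p = 0.0438). That test gives its smallest p when all 12 libraries share a direction, so here at least 1 did not. Exact matching keeps a T after base 20 of miR-26b, which follows the hairpin. It leaves out the 330 miR-26a reads with a T there, and their part in the gap was not tested.

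Both members were longer in the second time course at 6 of 6 time points. MiR-26a averaged 20.26 ± 0.761 nt in the first and 21.51 ± 0.0919 nt in the second (SD, n = 6 each), a difference of 1.25 nt, and miR-26b averaged 20.57 ± 0.654 nt and 21.64 ± 0.0508 nt (SD, n = 6 each), a difference of 1.07 nt. For each member the exact permutation test of the 64 flips (two-sided) gave p = 0.031, the smallest p possible, and an adjusted p of 0.0438. Tags of 18 or 19 nt fell from 26.3% ± 27.4 to 1.32% ± 0.717 for miR-26a and from 21.9% ± 21.3 to 0.709% ± 0.297 for miR-26b (SD, n = 6 each, with the same exact p and adjusted p). The libraries where miR-26 was short were those where the other miRNAs were short. In NT-1, the share of 18 or 19 nt was 80.5% for miR-26a, 60.2% for miR-26b and 51.3% for the rest, and in NT-2 it was 1.21%, 0.707% and 1.70%.

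**Figure D3:**
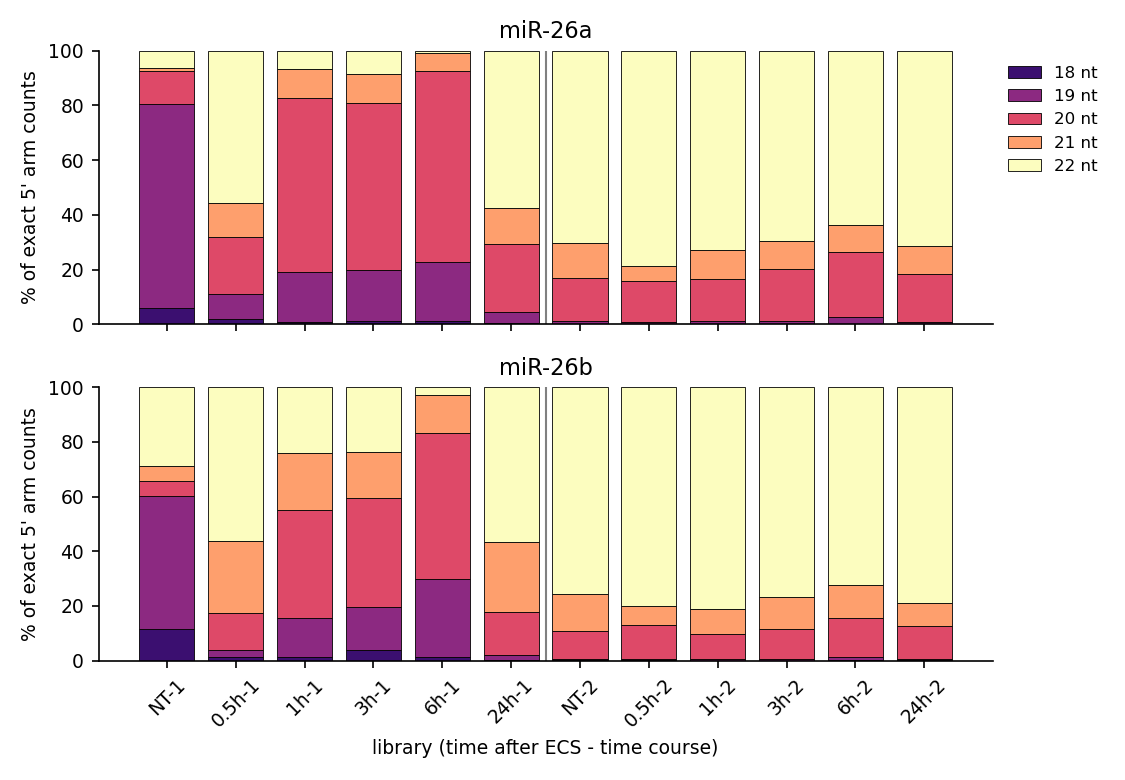
Length of the exactly matching 5′ arm tags of miR-26a (top) and miR-26b (bottom) in each library, as stacked percentages of the member's reads from 18 nt (dark, bottom) to 22 nt (light, top); the vertical line divides the first from the second time course. In NT-1 the most frequent length is 19 nt (74.5% of miR-26a and 48.7% of miR-26b), the 1, 3 and 6 h libraries of the first time course are mostly 20 nt for miR-26a, and the other 8 libraries are mostly 22 nt for both members.

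Between the time courses, both members were higher in the second relative to the other miRNAs. This comparison was fitted with edgeR's quasi-likelihood test on the counts of 469 arms with the time point as a covariate, and levels are given as CPM, counts relative to a common library size after edgeR's TMM scaling. At an adjusted p under 0.05, 152 arms were called, 32.4% of those tested, 94 higher and 58 lower, with a median log2 fold change of 0.29 over all arms. Both miR-26 arms were among them, so their calls stand against a background of 32.4% called.

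In the first time course miR-26a had 2896 CPM untreated and then, in order of time, 3161, 2261, 1925, 2213 and 3210 CPM. In the second it had 6148 CPM untreated and then 7013, 3420, 4521, 16299 and 8730 CPM. The courses did not overlap, although 3210 and 3420 lie close. Its log2 fold change was 1.38 (SE 0.44, edgeR quasi-likelihood test, adjusted p = 0.0291), 1.09 above the median arm, and it was higher at 6 of 6 time points. Scaled by total miRNA counts alone, with which the median arm moves to -0.30 and the calls split into 49 higher and 113 lower, it was 0.77 and no longer called (edgeR, adjusted p = 0.170). It also missed the threshold in 9 of the 12 fits that left out 1 library, with log2 fold changes between 0.988 and 1.504. Over its 21 alternatives the adjusted p ranged from 0.00547 to 0.170.

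In the first time course miR-26b had 288 CPM untreated and then, in the same order, 696, 217, 202, 213 and 699.9 CPM. In the second it had 1594 CPM untreated and then 2029, 845, 884, 7915 and 2053 CPM. The courses again did not overlap. Its log2 fold change was 2.37 (SE 0.56, edgeR quasi-likelihood test, adjusted p = 0.00785), 2.08 above the median arm, and it passed the threshold in all 21 alternatives, with log2 fold changes between 1.71 and 2.72. With the 0.5 and 24 h pairs alone, chosen after seeing the data because these 4 libraries held mostly full-length miR-26 tags, miR-26a had a log2 fold change of 1.46 (edgeR, adjusted p = 0.00547) and miR-26b of 1.71 (edgeR, adjusted p = 0.00343).

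**Figure D4:**
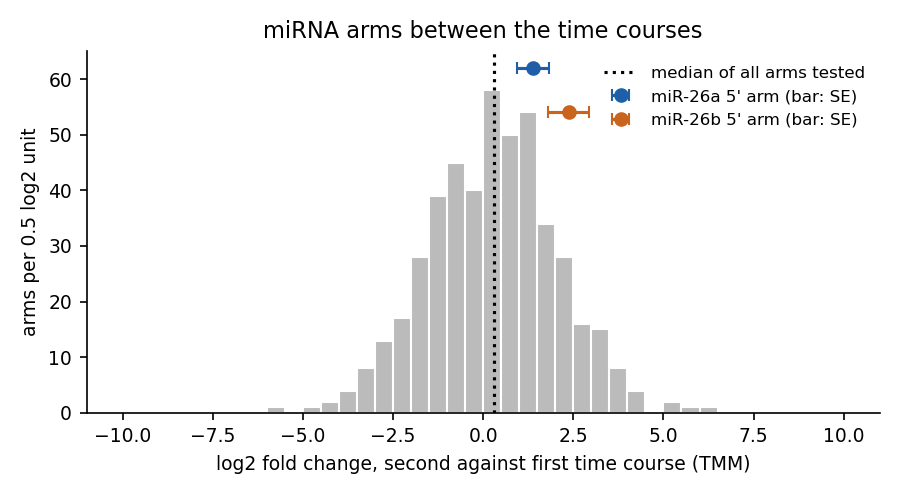
Number of miRNA arms per 0.5 log2 unit (grey bars) by log2 fold change of the second against the first time course for the 469 arms tested (edgeR, TMM scaling), with the 2 miR-26 arms as points with SE bars, placed at an arbitrary height. MiR-26a at 1.38 and miR-26b at 2.37 lie to the right of the median arm at 0.29 (dotted line), inside the spread of all arms.

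Markers of cell types were also compared between the time courses, in which 32.4% of the 469 arms tested were called. The 3 vessel markers (miR-126, miR-143 and miR-145) summed to between 6.28% and 14.4% of the miRNA counts in the first and between 0.556% and 1.64% in the second time course, and 2 of 3 were called lower. The 5 blood cell markers, of which miR-451 and miR-144 come from red cells and miR-142 and miR-223 from white cells, summed to between 0.129% and 1.10% and between 0.0357% and 0.254%, and 2 of 4 tested were called lower. The 2 oligodendrocyte markers lay between 0.260% and 1.39% and between 0.376% and 1.80%, and the 4 muscle markers between 0.258% and 1.10% and between 0.771% and 1.69%, with none called. The 5 neuronal markers lay between 14.1% and 31.1% and between 5.94% and 16.3%, and 1 was called lower. No marker of these lists was at 0 in a whole time course, and their part in the difference of miR-26 was not tested.

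MiR-26 is expressed in most tissues, so 2 lists give the setting for its shift. Of 65 broadly expressed miRNAs, 63 were tested by their more abundant arm, and 20 were called higher and 5 lower in the second time course, with a median log2 fold change of 0.60, beside 94 higher and 58 lower of 469 over all arms (32.4% called) and a median of 0.29. Of 21 neuron-enriched miRNAs, all were tested, 4 were called higher and 2 lower, near the share over all arms, and the median was 0.29. The broadly expressed list summed to between 41.3% and 56.7% of the miRNA counts in the first and between 65.3% and 78.4% in the second time course.

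After ECS, neither member could be told apart from the untreated libraries at any time. The study reports a batch effect between its time courses and considers it unlikely that this sequencing gives expression changes accurately. It turned to quantitative PCR for changes after ECS, with miR-26a among the miRNAs it measured. Of 469 arms, 0 were called (0%) at each of the 5 times by edgeR. At an unadjusted p under 0.05 there were 9, 2, 10, 9 and 7 arms in order of time, and DESeq2 called 1, 0, 2, 0 and 0. For miR-26a the log2 fold changes against untreated were 0.17, -0.67, -0.49, 1.03 and 0.40 from 0.5 h to 24 h, each with an SE between 1.09 and 1.11 (edgeR quasi-likelihood test, adjusted p between 0.988 and 1.00). For miR-26b they were 0.53, -0.83, -0.79, 2.11 and 0.55, with an SE between 1.47 and 1.53 (edgeR, adjusted p as for miR-26a). With the time course as a block the SEs fell to between 0.735 and 0.749 for miR-26a and between 0.898 and 0.934 for miR-26b, and again neither member was called at any time by edgeR.

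The untreated libraries themselves lay apart, at 2896 and 6148 CPM for miR-26a and at 288 and 1594 CPM for miR-26b. MiR-26a averaged 4522 CPM ± 2300 (SD, n = 2) in the untreated mice, and miR-26b 941 ± 924 (SD, n = 2). At 6 h, where the fold changes were highest, the 2 libraries went opposite ways. Against the untreated library of its own time course, miR-26a was 0.764-fold in the first and 2.65-fold in the second, and miR-26b was 0.739-fold and 4.96-fold. Without the library at 6 h of the second time course, the log2 fold changes at 6 h were -1.04 for miR-26a and -2.06 for miR-26b. That fit set 1 library of the first time course against the untreated libraries of both. The difference between the time courses thus enters these values. Over the alternatives, the adjusted p at 6 h lay between 0.692 and 1 for both members (edgeR or DESeq2).

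At 1 and 3 h, both members were below the untreated library in both time courses. At 1 h, miR-26a was 0.780-fold and 0.556-fold and miR-26b 0.753-fold and 0.530-fold of untreated in CPM. At 3 h, miR-26a was 0.665-fold and 0.735-fold and miR-26b 0.702-fold and 0.555-fold. As a share of the miRNA counts, 3 h was the lowest time in both courses for both members, at 0.376-fold and 0.538-fold of untreated for miR-26a and 0.397-fold and 0.406-fold for miR-26b. In TMM-scaled CPM the lowest library of the second course was instead that at 1 h. These are 2 libraries per time, and none of the changes passed the test.

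At 0.5 and 24 h the fold was larger for miR-26b than for miR-26a in the first time course. At 0.5 h miR-26a was 1.09-fold and miR-26b 2.42-fold of untreated in the first, and 1.14-fold and 1.27-fold in the second. At 24 h they were 1.11-fold and 2.43-fold in the first, and 1.42-fold and 1.29-fold in the second. The untreated library of the first time course was the one with mostly 19-nt tags, and its part in these folds was not tested.

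The later times (6 and 24 h) were also compared with the earlier ones (0.5, 1 and 3 h). Again 0 of 469 arms were called by edgeR (0%), 7 at an unadjusted p under 0.05, and DESeq2 called 1. MiR-26a had a log2 difference of 1.05 (SE 0.70) and miR-26b of 1.69 (SE 0.94), both with an adjusted p of 0.992 by edgeR. Without the library at 6 h of the second time course, the differences were -0.02 and -0.44. This fit has no term for the time course. The 6 h group then held only the library of the first time course, where both members were lower. With all libraries and the time course as a block, the differences were 0.81 and 1.37 (edgeR, adjusted p = 0.857 for both).

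No difference in the ratio of miR-26b to miR-26a after ECS was detectable within the spread of the libraries. Averaged over the time courses, it was 0.271 higher on the log2 scale than in the untreated libraries (exact permutation test over the 36 ways of calling 1 library of each time course untreated, two-sided, p = 0.722), and leaving out 1 library moved this difference to between 0.0894 and 0.452. Among tags of 21 nt or more the sign turned, to -0.425 (exact permutation test, two-sided, p = 0.222), where NT-1 with 159 reads of miR-26b and 337 of miR-26a had the highest ratio of its course.

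Many reads began as miR-26 but did not follow the hairpin to their end. Counted by their first 18 nt, miR-26a had 177560 reads and miR-26b 44537, so that reads with a changed 3′ end or a mismatch made up between 10.8% and 29.8% of miR-26a and between 9.26% and 26.7% of miR-26b per library. Many of them carried added A or T (U in the RNA), which terminal nucleotidyl transferases are known to add to mature miRNAs. The shares below count a single added base on tags that followed the hairpin at least to base 20. Additions after base 20 had 966 reads with A and 330 with T in miR-26a, and 179 with A in miR-26b. The tags with a single added base after base 21 or 22 are shown with the bases beyond the hairpin match in capitals.
miR-26a, added T after base 22: ttcaagtaatccaggataggctT
miR-26a, added A after base 21: ttcaagtaatccaggataggcA
miR-26a, added A after base 22: ttcaagtaatccaggataggctA
miR-26b, added T after base 22: ttcaagtaattcaggataggttT
miR-26b, added A after base 21: ttcaagtaattcaggataggtA
miR-26b, added A after base 22: ttcaagtaattcaggataggttA
The most frequent tag with a longer addition, TT after base 22 of miR-26a, had 3489 reads. The tag with T after base 22 had 6944 reads in miR-26a and 2336 in miR-26b. The tag with A after base 21 had 5695 and 1205 reads, and that with A after base 22 had 1851 and 1055.

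The added base depended on where the hairpin match ended. In miR-26a, A followed 28.9% of the reads that matched the hairpin to base 21 and 1.84% of those that matched to base 22, counting reads with no or 1 further base. T followed 6.89% of those that matched to base 22. In miR-26b, A followed 21.8% and 3.47%, and T followed 7.69% after base 22. Shorter matches, which the shares below leave out, also had additions. T followed 11.5% of the miR-26a reads and 18.0% of the miR-26b reads that matched to base 19. A followed 15.2% and 26.9% of those that matched to base 18. A T after base 21 of miR-26a, or after base 20 or 21 of miR-26b, is also the next base of the hairpin, so that it cannot be seen as added. The sequence of the 3′ adapter is not given in the sources used here, so bases left from it cannot be told apart from added bases.

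A single added A, on tags that followed the hairpin at least to base 20, was found on 0.798% of the miR-26a reads in the untreated library of the first time course and then on 4.29%, 1.67%, 2.24%, 2.71% and 4.05% in order of time. In the second it was found on 5.05% and then 4.96%, 5.62%, 7.08%, 3.13% and 5.64%. The mean rose from 2.62% ± 1.36 to 5.25% ± 1.29 (SD, n = 6 each), with all 6 time points in that direction (exact permutation test, two-sided, p = 0.031, adjusted p = 0.0438). For miR-26b it rose from 3.53% ± 2.03 to 5.54% ± 1.83 (SD, n = 6 each, with the same exact p and adjusted p). With exactly matching tags as the denominator, the miR-26b difference of 2.38 percentage points missed the threshold (exact permutation test, two-sided, p = 0.0625).

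A single added T was rare on miR-26a in the first time course, between 0.0576% and 0.528%, and stood between 1.502% and 7.35% in the second. The means were 0.351% ± 0.161 and 4.98% ± 2.14 (SD, n = 6 each), the courses did not overlap, and all 6 time points had that direction (exact permutation test, two-sided, p = 0.031, adjusted p = 0.0438). On miR-26b the share was 3.46% untreated and then 0.12%, 0.863%, 3.11%, 0% and 0% in the first time course, and between 1.31% and 10.9% in the second. The means were 1.26% ± 1.61 and 5.64% ± 3.54 (SD, n = 6 each), with 5 of 6 time points higher in the second (exact permutation test, two-sided, p = 0.09375, adjusted p = 0.119). With the limit of a match to base 20 or beyond, an added T on miR-26b can be seen only on reads that match to base 22. In the first time course 4 reads reached that base at 6 h and 958 at 24 h, so the 0% at 6 h was nearly fixed by tag length.

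Reads whose hairpin match ends before base 20 are in the denominator of the shares of added bases but cannot count as additions. In an alternative added after seeing the data, the denominator was limited to reads that followed the hairpin far enough, to base 22 for T and to base 20 for A. None of the differences between the time courses then passed the test. For added T, the difference was 4.40 percentage points for miR-26a (exact permutation test, two-sided, p = 0.09375) and 2.79 for miR-26b (exact permutation test, two-sided, p = 0.406). For added A it was 1.44 points for miR-26a and 1.02 for miR-26b (exact permutation tests, two-sided, p = 0.156 and 0.125). On this count T followed 6.72% of the miR-26a reads in NT-1, from 357 reads, and 0.217% and 0.156% at 0.5 and 24 h of the first time course, from 3687 and 4501 reads, against between 1.87% and 10.5% in the second.

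No difference in added bases between the members passed the test. The share with 1 added A was 0.597 percentage points higher in miR-26b, with that direction in 8 of 12 libraries (exact permutation test, two-sided, p = 0.168, adjusted p = 0.190). The share with 1 added T was 0.786 points higher in miR-26b on average, in 6 of 12 libraries (exact permutation test, two-sided, p = 0.177, adjusted p = 0.190).

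**Figure D5:**
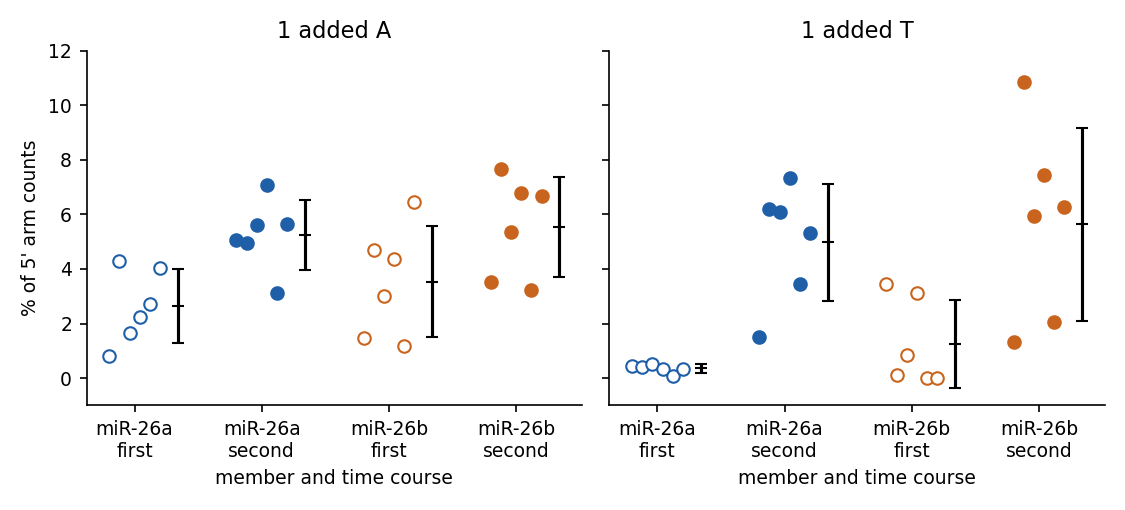
Percentage of the 5′ arm reads, counted by their first 18 nt, that carry 1 added A (left) or 1 added T (right) for miR-26a (blue) and miR-26b (orange); open points are libraries of the first and filled points of the second time course, and the black bars are means ± SD (n = 6). Added T on miR-26a is at most 0.528% in the first and at least 1.502% in the second time course, while the other 3 pairs overlap.

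A wrong base at 1 of the positions that differ could move reads from 1 member to the other. Reads of at least 21 nt show both positions. Those with the base of miR-26a at both numbered 131887 and those with the base of miR-26b at both numbered 37202. Reads with T at position 11 and the miR-26a base at position 21 numbered 510, which is 0.387% of the miR-26a reads, against 73 with A (0.0554%) and 82 with G (0.0622%) at position 11. Reads with C at position 11 and the miR-26b base at position 21 numbered 739, or 1.99% of the miR-26b reads. They include 330 reads of miR-26a that matched its hairpin to base 20 and ended in 1 T, which the shares of added T also count. The 1.99% is thus not a share of wrong bases alone. The share of wrong bases in reads of 18 to 20 nt was not tested, since these show position 11 alone.

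The arms whose TMM-scaled levels went most closely with miR-26 were the same 5 for both members. Over the 12 libraries and 70 other arms with a mean above 0.1% of the miRNA counts, Pearson's r of log2 CPM with miR-26a was 0.894 for let-7f-5p, 0.861 for miR-29c-3p, 0.856 for miR-9-3p, 0.845 for miR-21a-5p and 0.729 for miR-221-5p. With miR-26b it was 0.941 for miR-9-3p, 0.939 for miR-29c-3p, 0.924 for miR-21a-5p, 0.880 for let-7f-5p and 0.842 for miR-221-5p. The median over the 70 arms was 0.0421 and 0.0356. MiR-26a and miR-26b had an r of 0.972 with each other. These are descriptions (n = 12), since the libraries share their time course, depth and tag lengths.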

How the data were processed

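Small RNA of about 18 to 24 nt, per the labels, was size-selected from hippocampal total RNA, ligated to Illumina adapters, amplified and sequenced (12 libraries, 1 mouse each). The authors removed the 3′ adapter and deposited, for each library, every distinct tag of at least 18 nt with its read count, not normalized. The adapter sequence is not given in the sources used here. Here, tags were matched over their full length to the miRNA hairpins of GENCODE M21 (GRCm38), loci of a name were joined, and a tag that matched several miRNAs was split equally; no miR-26 tag did. Exact matching leaves out reads with an added or wrong base, so the first 18 nt gave an alternative. The 469 arms that reached 10 counts in 2 or more libraries were tested with edgeR 4.0.16 (TMM, quasi-likelihood, Benjamini-Hochberg over all arms), with DESeq2 1.42.0 as an alternative, in R 4.3.3. Values per library were tested by exact permutation in Python, with 14 tests adjusted together. Both kinds of test were checked on simulated data. Other alternatives were scaling, filters, tag length, the replicate block and leaving out each library.

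Each miRNA of the lists was represented by its more abundant arm. The arms named as most alike were the 5 with the highest Pearson r among arms above 0.1% of the miRNA counts. The members and lists were chosen with earlier results of these data known. Each group has 1 library in each time course, and p-values measure the spread between single mice together with the time course where it is no term of the fit. Replicate numbers mark the time course: deviations of libraries from their time point mean correlated between all 15 pairs of time points (r between 0.353 and 0.759, 344 arms).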

Additional observations from a re-analysis of the deposited data

Results flagged for a closer look

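The 28 sets of 6 libraries examined (a measure of a member within a time course) share libraries and counts. Their number past a limit thus cannot be set against chance. In 4 of them a library had a gap to its nearest neighbour that was large for the range of the set, by a limit that chance passes in about 1 in 20 single sets. Of these, 3 were the library at 6 h of the second time course, with a miR-26b share of 0.513% of the miRNA counts against at most 0.197% in the other 5, a ratio of 48.6 miR-26b reads per 100 miR-26a reads against at most 28.9, and a ratio of 55.7 among tags of 21 nt or more against at most 29.8. That library had 1897490 accepted reads, the fewest of the 12, of which 69.6% matched miRNA hairpins, the highest share. The fourth was NT-1, with a ratio of 47.2 among tags of 21 nt or more (Wilson 95% interval 39.1 to 57.0) against at most 26.6 in the other 5 libraries of its time course. It rests on 159 reads of miR-26b and 337 of miR-26a. The part of depth and tag length in these values was not tested.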

How the results depend on the processing

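Between the time courses, 63 of 131 arms were called with at least 50 counts in every library (fewer arms tested), and between 92 (without the library at 1 h of the first time course) and 157 when 1 library was left out. The miR-26a difference was 0.77 with total miRNA counts only (adjusted p = 0.170) and between 0.988 and 1.504 when 1 library was left out. Against untreated, DESeq2 called 1 arm at 0.5 h and 2 at 3 h, edgeR with no filter called 1 at 3 h, and DESeq2 called 1 arm late against early. The miR-26a log2 fold change turned to -0.0526 at 0.5 h with no filter on low counts and to -0.0910 at 24 h with total miRNA counts. The main fits against untreated and of late against early had no term for the time course. Leaving out 1 library thus also unbalanced the time courses. When 1 library was left out, the log2 fold changes of miR-26a ranged from -0.52 to 0.81 at 0.5 h, from -1.10 to -0.028 at 1 h, from -1.51 to 0.15 at 3 h, from -1.04 to 1.85 at 6 h, from -0.77 to 1.04 at 24 h and from -0.0195 to 1.45 late against early. Those of miR-26b ranged from -0.44 to 2.24 at 0.5 h, from -1.65 to 0.88 at 1 h, from -2.40 to 0.92 at 3 h, from -2.06 to 3.82 at 6 h, from -0.61 to 2.26 at 24 h and from -0.44 to 2.17 late against early. None of these passed the threshold in any alternative.

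With the time course as a replicate block, no call changed. At 6 h, for example, the blocked log2 fold changes were 0.69 for miR-26a and 1.55 for miR-26b (edgeR, adjusted p = 0.873 and 0.692).

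The log2 difference of the miR-26b to miR-26a ratio between the time courses was 0.127 among tags of at least 21 nt and 0.252 with only the 0.5 and 24 h time points, and that after ECS was -0.425 among tags of at least 21 nt. The added A of miR-26b differed by 2.38 points with exactly matching tags as the denominator. With only reads that follow the hairpin to base 20, the added A differed by 1.44 points for miR-26a and 1.02 for miR-26b, and with only reads that follow it to base 22 the added T of miR-26a differed by 4.40 points, none past the threshold. Leaving out 1 time point leaves 5 pairs, which cannot pass the threshold, and says nothing on stability beyond the values. The log2 ratio difference then lay between 0.830 and 1.27, the length difference between 1.05 and 1.44 nt for miR-26a and between 0.943 and 1.23 nt for miR-26b, and the difference in tags of 18 or 19 nt between -29.2 and -14.1 points and between -25.1 and -13.6 points. That in added A lay between 2.18 and 3.06 points for miR-26a and between 1.82 and 2.37 for miR-26b, and that in added T of miR-26a between 4.15 and 5.34. The causes were not tested. Of 587 values recomputed under alternatives, 500 kept their direction and their side of the threshold, or for counts stayed within 1.5 times. Many of these values belong to comparisons with no call in the main fit, so this number does not measure how stable the calls are. Between the time courses, miR-26a was called in 11 of 21 alternatives and miR-26b in all 21.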
